A study of Canis lupus familiaris with 6 samples.

Results

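Cyclin D1 (CCND1), MYC, CDC25A, thymidylate synthase (TYMS), UBE2S, survivin (BIRC5), CENPS and MCPH1 were followed as a set of 8 cell cycle and proliferation genes out of 1437 genes that received a symbol on these arrays. The genes were taken from a list of names chosen with earlier results of these data known. Their probes were those annotated with a dog RefSeq transcript of the gene, which gave 11 probes: 2 each for TYMS, UBE2S and MCPH1, and 1 for each of the other 5 genes. The cells were MDCK-II, an established epithelial line from dog kidney tubule, made to express a short hairpin RNA against scribble, a scaffold protein of cell polarity, when tetracycline is present (scribKD cells). Cells were plated at 154000 per well, and tetracycline was added to 5 µg/ml 6 h later or left out (0 µg/ml). Total RNA was taken after 30, 45 and 60 h, so that 2 arms of 3 arrays each, 1 per time, give 6 arrays in all. All 6 arrays come from cells that carry the hairpin construct, in high-glucose DMEM with serum and penicillin. No cells without the hairpin were given tetracycline in the samples used here, so an effect of the drug and an effect of the hairpin cannot be told apart.

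As background, the members act at successive steps of division. Cyclin D1 with its kinases drives phosphorylation of the retinoblastoma protein, which frees E2F factors to switch on genes for DNA replication. MYC is a transcription factor that promotes growth and entry into the cycle, and CDC25A is the phosphatase that removes inhibitory phosphates from cyclin-dependent kinases. TYMS makes the thymidylate needed for DNA synthesis. UBE2S is the ubiquitin-conjugating enzyme that lengthens chains on substrates of the anaphase-promoting complex, survivin is a subunit of the chromosomal passenger complex and an inhibitor of apoptosis, and CENPS belongs to the inner kinetochore and to the Fanconi anaemia DNA repair pathway. MCPH1 (microcephalin) restrains premature chromosome condensation and takes part in the DNA damage response. Epithelial cells such as MDCK divide less often once they form a dense sheet.

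Each array holds RNA mixed from 3 wells, so an array is 1 sample and no condition has a replicate. The p-values and SE therefore hold no spread between replicate cultures. They rest on the spread of an arm difference over the 3 times, or of a change in time over both arms. That spread is pooled with a prior shared by all probes. For arm and time the prior has 2.38 degrees of freedom and outweighs the 2 residual ones. In RNA from whole wells, fewer cells of a kind and less RNA per cell cannot be told apart. The share of non-control spots well above background was 64.3% to 68.8%, and 0 spots were saturated. Slide 1 held both 30 h arrays and the 45 h array without tetracycline, and slide 2 the 45 h array with tetracycline and both 60 h arrays. At 45 h an effect of arm and an effect of slide therefore cannot be told apart. Each step between neighbouring times lies within a slide in 1 arm and across slides in the other. Of 11 epithelial markers 7 had a probe and all 7 were well above background on all 6 arrays: CDH1, KRT19, TJP1, OCLN, CLDN2, CLDN3 and CGN. The log2 of their summed signal, on the scale used below, was 7.02 to 7.06 without and 6.75 to 6.88 with tetracycline. The leukocyte markers with a probe, CD4 and CD8A, summed to between -3.40 and -3.18, and the endothelial pair KDR and VWF to between 4.46 and 4.62. Both pairs were well above background on all 6 arrays. The 5 fibroblast markers with a probe summed to between 1.71 and 1.91. COL1A1, COL1A2, PDGFRB and THY1 were well above background on all 6 arrays and DCN on 0. Such sums lean on the brightest gene and are not compared between cell types. KRT19 alone stood at 6.12 to 6.51 and VWF at 4.45 to 4.61. The part of these markers in the results below was not tested. SCRIB had 0 matched probes, so the depth of the knockdown was not analysed here.

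Levels are given as log2 signal relative to the 75th percentile of each array, so that 0 is the signal of that percentile, and they are compared between arrays for 1 probe and never between probes. The error estimate that the extraction program gives for a spot was 0.14 on this scale for the bright probes, which makes 0.20 for a difference of 2 arrays. It was up to 0.41 for the dimmest probes. This is an error of measurement on the array and holds no spread between cultures. Tests took probes detected, meaning well above background, throughout 1 arm or both. All 11 met this, and 9 were detected on all 6 arrays, the exceptions being both probes of MCPH1. The MCPH1 probes entered through the arm without tetracycline, where they are high, so their arm difference and slope are described with no test.

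Of the G1/S list 3 genes had a probe, CCND1, MYC and CDC25A, and each was higher with tetracycline at 60 h. Cyclin D1 stood at 2.17, 1.82 and 0.85 without tetracycline and at 2.27, 2.45 and 2.47 with it, at 30, 45 and 60 h. It was lower at each later time without tetracycline and nearly level with it, and the lowest value with tetracycline lay 0.09 above the highest value without, a gap of 0.01 with normexp background correction. The difference between the arms was 0.09 at 30 h, 0.63 at 45 h and 1.61 at 60 h, which is 3.06-fold higher with tetracycline at the last time. Without tetracycline the 60 h array was 2.50-fold lower than the 30 h array, a change of -1.32, against a change of 0.20 with it.

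MYC had a different course. Its level was 1.56, 1.43 and 0.13 without tetracycline and 1.01, 1.09 and 0.81 with it. The arms overlapped: MYC was lower with tetracycline at 30 and 45 h and higher at 60 h, where the array without tetracycline held the lowest MYC value of all 6. The difference between the arms was -0.56, then -0.35, then 0.68, each larger than the program's error of 0.20. At 60 h the level without tetracycline was 2.47-fold lower than at 45 h, a step across the slides. With tetracycline the same step was -0.28 and lay within a slide, so the steps of the arms differ in slide too.

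CDC25A was dim but well above background on all 6 arrays. Without tetracycline it stood at -3.31, -4.11 and -5.03, and with tetracycline at -3.51, -3.47 and -4.20. The CDC25A level was thus lower by 0.80 at 45 h and by a further 0.92 at 60 h in cells without tetracycline, a 3.29-fold difference from 30 h to 60 h. In cells with tetracycline the level was the same to within 0.03 at 30 and 45 h and lower by 0.73 at 60 h, or 1.61-fold from 30 h to 60 h. The step to 45 h lay within a slide without tetracycline and across slides with it, and the step to 60 h the other way round. The difference between the arms was -0.20, 0.64 and 0.83, with a program error of 0.23 to 0.30. Normexp correction, whose offset of 50 is close to the signal of this probe (18.0 to 64.3), gave a mean arm difference of 0.17 in place of 0.42 and a slope of 0.17 in place of 0.51.

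**Figure D1:**
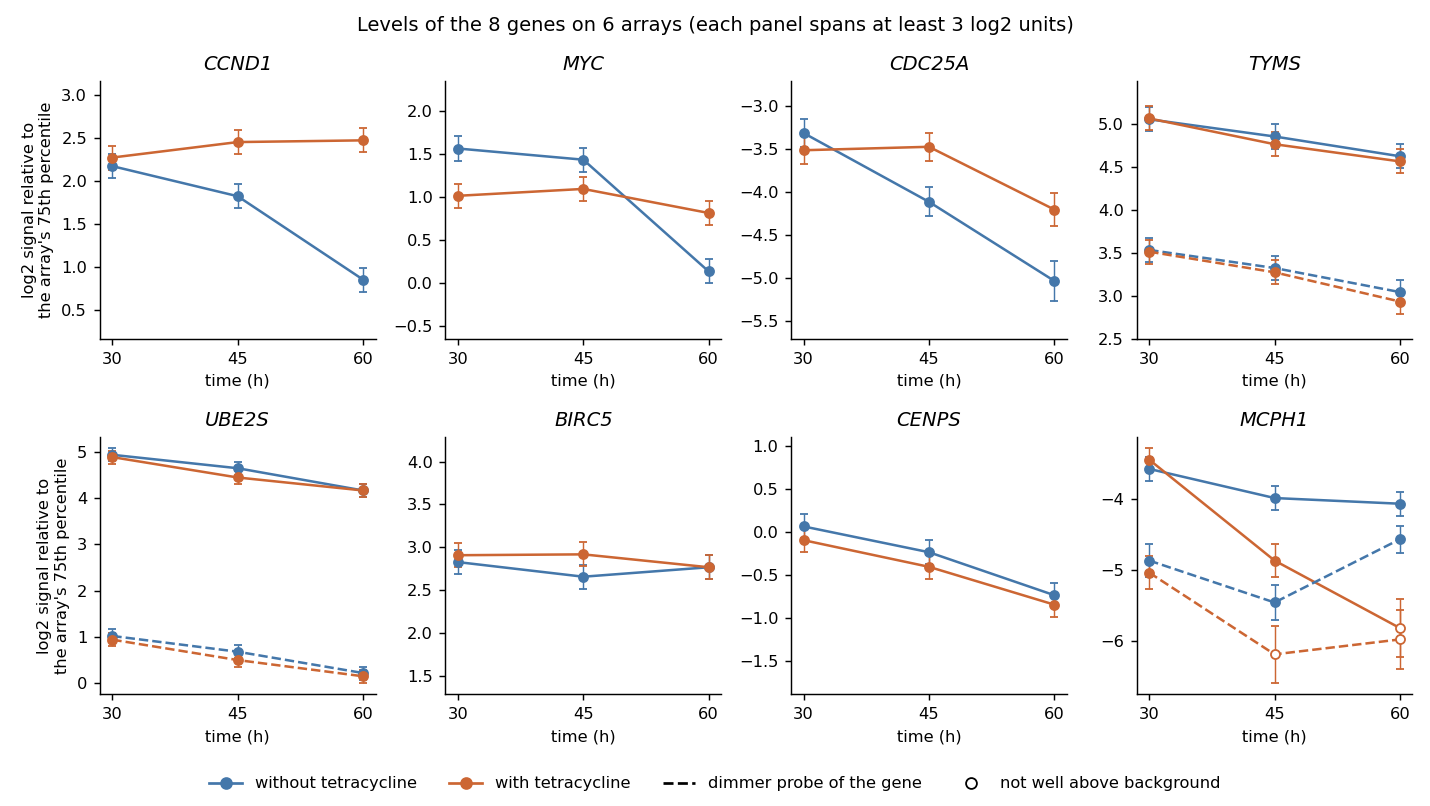
Log2 signal relative to the 75th percentile of the array (vertical axes) against time in hours for each gene, without (blue) and with (orange) tetracycline. Points are single arrays, bars are the extraction program's error estimate, dashed lines the dimmer of 2 probes, and open points are not well above background. CCND1, MYC and CDC25A end higher with tetracycline at 60 h, TYMS, UBE2S and CENPS run downward together in both arms, and MCPH1 ends lower with tetracycline.

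TYMS, UBE2S and CENPS fell from 30 h to 60 h over both arms. For these genes the 60 h level was below the 30 h level on every probe, and the values of the arms lay close together. The brighter TYMS probe stood at 5.05, 4.85 and 4.62 without tetracycline and at 5.06, 4.76 and 4.56 with it. Its dimmer probe stood at 3.53, 3.32 and 3.04 against 3.51, 3.27 and 2.93. Both probes thus stepped down at each time in each arm, and the arms overlapped over the 3 times. From 30 h to 60 h TYMS fell by 0.47 ± 0.08 (SE, 2 arms) on the brighter probe (limma, adjusted p = 0.0488) and by 0.54 ± 0.08 on the dimmer one (adjusted p = 0.0415).

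UBE2S, read by 2 probes, ran the same way on each. The brighter one stood at 4.93, 4.64 and 4.16 without and at 4.88, 4.44 and 4.16 with tetracycline, and the dimmer one at 1.02, 0.68 and 0.22 against 0.94, 0.50 and 0.15. On both probes the highest value was the 30 h array without tetracycline, and the 60 h arrays of the arms differed by 0.01 and 0.07. UBE2S fell by 0.74 ± 0.09 (limma, adjusted p = 0.0373) and 0.79 ± 0.08 (adjusted p = 0.0369) from 30 h to 60 h.

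The kinetochore gene CENPS stood at 0.06, -0.24 and -0.74 without tetracycline and at -0.10, -0.41 and -0.85 with it. It was a little lower with tetracycline at each time, by 0.16, 0.17 and 0.11, which is within the program's error of 0.20. From 30 h to 60 h CENPS fell by 0.77 ± 0.08 (limma, adjusted p = 0.0369), 1.74-fold without and 1.68-fold with tetracycline.

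In this contrast 5 of the 11 member probes, those of TYMS, UBE2S and CENPS, fell at an adjusted p under 0.05 and 0 rose, where 4.21% of the 28178 probes tested fell and 3.97% rose. CDC25A changed by more, -1.20 ± 0.27, but did not pass (limma, adjusted p = 0.0684). Nor did MYC at -0.82 ± 0.33 (adjusted p = 0.177) or cyclin D1 at -0.56 ± 0.38 (adjusted p = 0.372). Over the 9 probes detected throughout, the median change was -0.74, beside 0.02 over all probes tested. Since the members were chosen with earlier results of these data known, these shares and medians are a description and test no enrichment. With each array centred on its median instead, the split of all calls went from 1118 up and 1186 down to 955 up and 1863 down, and the same 5 member probes passed. Under quantile scaling UBE2S and CENPS passed and TYMS did not (adjusted p = 0.0635 and 0.0530). Each call was lost when any 1 of the 6 arrays was left out, as was every other call of the contrast, while the sizes ran from -0.42 to -0.58 for TYMS, -0.68 to -0.82 for UBE2S and -0.75 to -0.80 for CENPS. Once slide was added to the model the changes were -0.40 and -0.56 for TYMS, -0.57 and -0.69 for UBE2S and -0.74 for CENPS, each ± 0.24 (SE, adjusted p = 0.938), and with no detection filter they kept their size but 0 probes passed.

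Without a model, time and slide are apart only on the 2 steps that lie within 1 slide. From 30 h to 45 h without tetracycline, both arrays on slide 1, all 9 member probes detected throughout were lower at the later time, with a median of -0.29 beside 0.00 for all probes tested, of which 49.5% were lower. The step was -0.20 and -0.22 for TYMS, -0.29 and -0.34 for UBE2S, -0.30 for CENPS and -0.80 for CDC25A. From 45 h to 60 h with tetracycline, both on slide 2, 8 of these 9 were lower, with a median of -0.28 beside -0.01 and 52.2% of all probes. Here TYMS stood at -0.20 and -0.34, UBE2S at -0.28 and -0.35, CENPS at -0.44 and CDC25A at -0.73, while CCND1 was level at 0.01. These steps are 1 array against 1 and carry no test.

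Survivin stayed nearly level. BIRC5 stood at 2.83, 2.66 and 2.77 without tetracycline and at 2.91, 2.92 and 2.77 with it. The arms overlapped and the 6 values spanned 0.26, little more than the program's error for 2 arrays. Its mean arm difference was 0.12 ± 0.08 (SE, 3 pairs of arrays), with a 95% interval from -0.11 to 0.34, and its change from 30 h to 60 h was -0.10 ± 0.10 (limma, adjusted p = 0.547), with an interval from -0.37 to 0.17.

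As measured, MCPH1 was lower with tetracycline at 45 and 60 h on both probes, though the 45 h arrays of the arms lay on different slides. Its brighter probe is printed as 5 spots on each array, which gives a spread within the array. Over those spots its level was -3.58 ± 0.23, -3.99 ± 0.17 and -4.07 ± 0.11 (SD, 5 spots) without tetracycline at 30, 45 and 60 h. With tetracycline it was -3.45 ± 0.08, -4.87 ± 0.22 and -5.82 ± 0.12. The spots of the arms overlapped at 30 h and did not at 45 and 60 h, and at 60 h with tetracycline 0 of the 5 spots were well above background. The arm difference was 0.14 at 30 h and -0.88 at 45 h, or 1.85-fold lower with tetracycline, and at 60 h it was at least 3.01-fold lower, where the undetected array was set to the dimmest detected signal it holds. The dimmer probe stood at -4.87, -5.46 and -4.57 without tetracycline and at -5.04, -6.19 and -5.98 with it, the last 2 of these not well above background. Its difference was -0.17 at 30 h. With undetected arrays set to the same kind of floor, it was lower with tetracycline by 1.35-fold at 45 h and by 2.12-fold at 60 h. The 45 h value is a difference of -0.43, within the program's error of 0.47, and normexp correction gave -0.08.

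The probes of MCPH1 thus had the same order of the arms at 45 and 60 h as measured, though at 45 h the dimmer one does not resolve it. They differed in the arm without tetracycline, where the brighter one was 0.48 lower at 60 h than at 30 h and the dimmer one 0.30 higher. With tetracycline the brighter probe stood 2.68-fold below its 30 h level at 45 h. At 60 h, with undetected arrays set to the floor, the brighter probe stood 4.63-fold and the dimmer one 1.53-fold below the 30 h level. Signals were low: 10.3 to 58.2 for the brighter and 8.47 to 24.7 for the dimmer probe, where the lowest spot well above background on an array lay between 9.07 and 13.6. Normexp correction with its offset of 50 brought the mean arm difference from -0.83 to -0.22 and from -0.77 to -0.16 on the 2 probes.

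**Figure D2:**
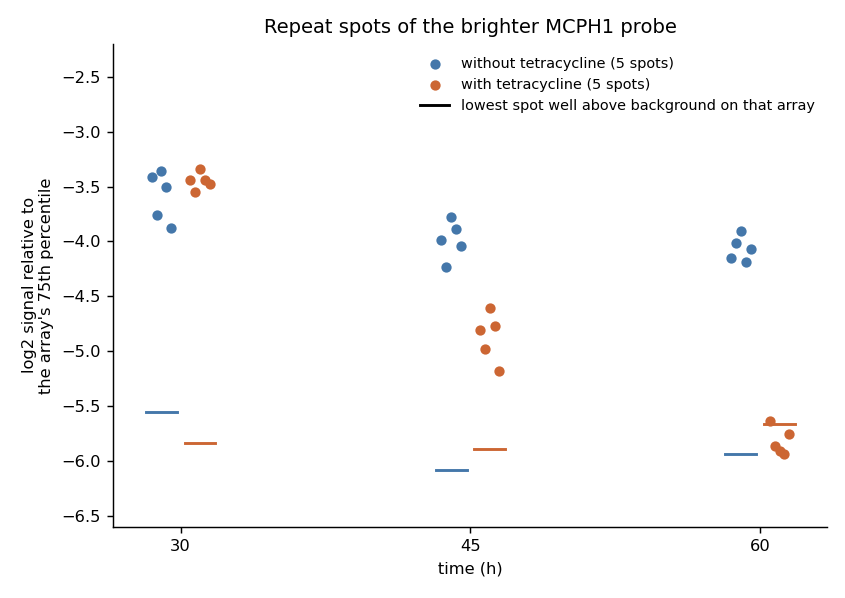
Log2 signal relative to the 75th percentile of the array for the 5 repeat spots of the brighter MCPH1 probe, against time in hours, without (blue) and with (orange) tetracycline. Horizontal bars mark the lowest spot well above background on the same array. The spots overlap at 30 h and are apart at 45 and 60 h, and with tetracycline they reach the floor at 60 h only.

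Across the 3 times together, the arm difference passed an adjusted p of 0.05 for 0 of the 9 member probes detected throughout and for 0% of the 28178 tested (limma). Under a trended and robust prior 20 probes passed, 144 with normexp and 21 with no term for time, none of them a member's. At an unadjusted p under 0.05 stood 0 of the 9 member probes detected throughout and 23.3% of all probes. For cyclin D1 the mean was 0.78 ± 0.31 (SE over 3 pairs; adjusted p = 0.231), CDC25A of 0.42 ± 0.22 (adjusted p = 0.324) and MYC of -0.08 ± 0.27 (adjusted p = 0.891). With the 60 h pair left out the mean was 0.36 for cyclin D1 and 0.22 for CDC25A, and with the 30 h pair left out 1.12 and 0.73. For MYC it was -0.45 and 0.16. As measured, undetected arrays included, the mean for the probes of MCPH1 was -0.83 and -0.77. Cyclin D1 was the 1 member probe whose arms did not overlap, against 22.2% of all probes tested. The 95% intervals of the mean difference were -0.23 to 0.13 and -0.24 to 0.12 for TYMS, -0.29 to 0.12 and -0.29 to 0.08 for UBE2S, and -0.33 to 0.03 for CENPS. They hold no spread between cultures, so they do not limit a difference between replicate cultures of the arms.

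**Figure D3:**
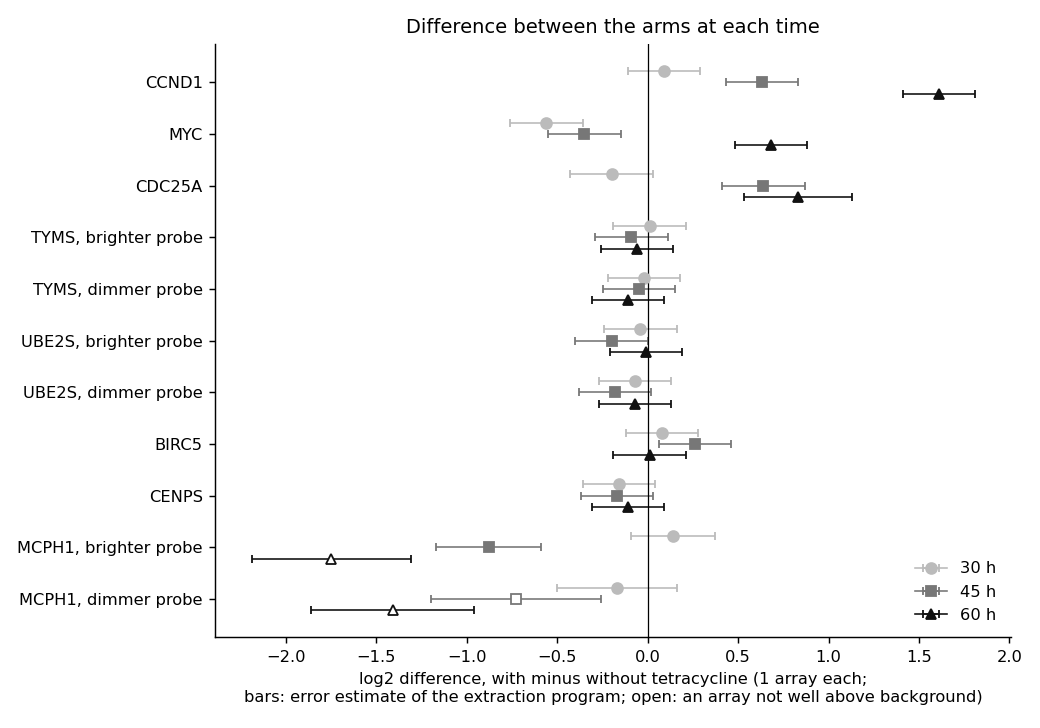
Log2 difference with minus without tetracycline (horizontal axis) for each of the 11 member probes at 30 h (light circles), 45 h (grey squares) and 60 h (black triangles), 1 array in each arm. Bars are the extraction program's error, and open symbols involve an array not well above background. CCND1 moves from 0.09 to 1.61 and MYC from -0.56 to 0.68, MCPH1 moves the other way, and TYMS, UBE2S, BIRC5 and CENPS stay near 0.

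The slope of the arm difference per 15 h asks whether the courses of the arms diverge. It was 0.76 ± 0.10 for cyclin D1 (limma, SE, adjusted p = 0.113), 0.62 ± 0.14 for MYC (adjusted p = 0.170) and 0.51 ± 0.12 for CDC25A (adjusted p = 0.173). For MCPH1 the measured slopes, which include undetected arrays, were -0.95 and -0.62, and with normexp -0.23 and -0.09. The remaining 6 probes lay between -0.05 and 0.02. At an unadjusted p under 0.05 stood 3 of the 9 member probes detected throughout upward, those of CCND1, MYC and CDC25A, and 0 downward, where 8.3% of all probes were upward and 10.8% downward. At an adjusted p under 0.05 stood 0 of these and 0% of all probes. With members chosen when earlier results were known, such shares are a description and test no enrichment. Cyclin D1 passed under normexp (adjusted p = 0.00301) and under the trended and robust prior (adjusted p = 0.00568), MYC passed under normexp (adjusted p = 0.0197), and CDC25A passed under none of the settings tried. This fit has 1 residual degree of freedom and rests largely on the prior shared by all probes.

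**Figure D4:**
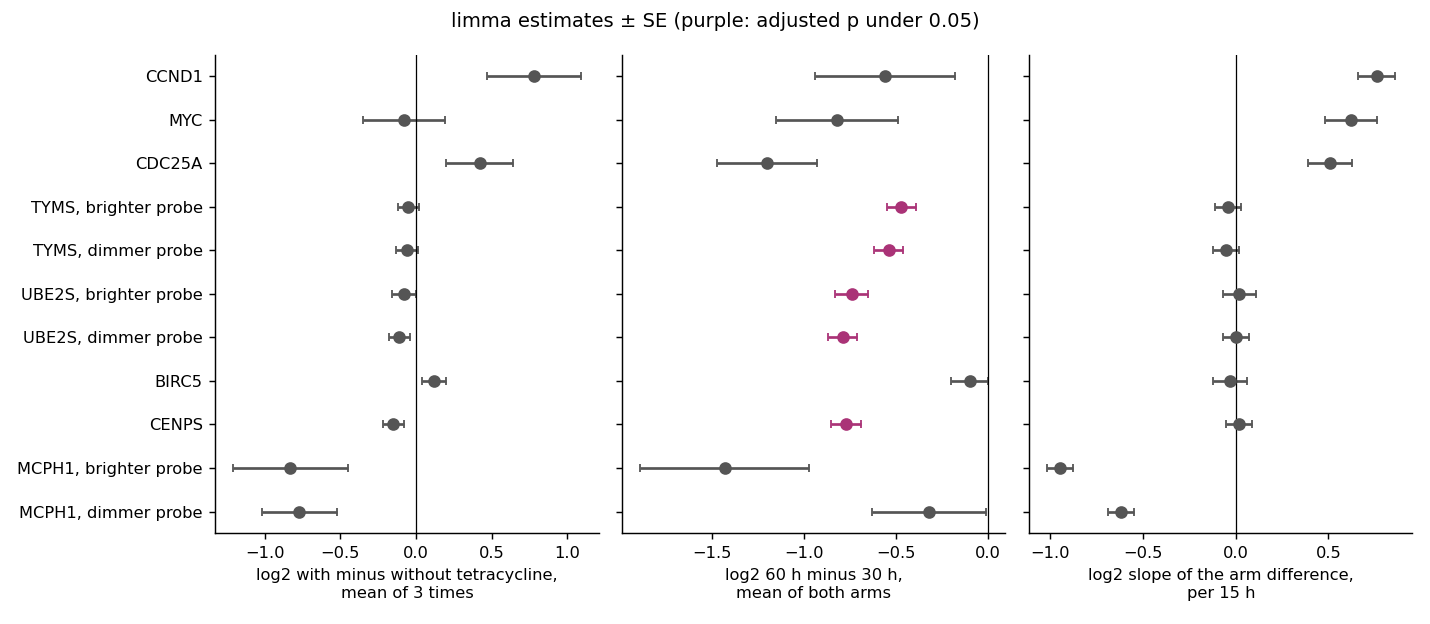
limma estimates with their SE for the 11 member probes: the mean difference between the arms (left), 60 h minus 30 h over both arms (middle) and the slope of the arm difference per 15 h (right), all log2. Purple points, the 5 probes of TYMS, UBE2S and CENPS in the middle panel, passed an adjusted p of 0.05. The MCPH1 points include undetected arrays and are a description only in the left and right panels.

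Taken at 60 h alone, 1 array against 1 with no replicate check, CCND1 was the 1 member probe at least 2-fold higher with tetracycline, as were 3.04% of probes well above background on either array, and both probes of MCPH1 were at least 2-fold lower, as were 4.64%. From 30 h to 60 h without tetracycline 3 member probes were lower by at least 2-fold, namely CCND1, MYC and CDC25A, against 2.58% of all probes. With tetracycline it was 1, the brighter MCPH1 probe, against 2.76%. These counts are a description and no test.

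Of the other cell cycle genes, 164 genes in 7 lists including the members, only 16 had a matched probe, 8 of them members. The 8 others had a median arm difference of -0.18, beside 0.01 for all probes tested, and a median change from 30 h to 60 h of 0.01, beside 0.02. Of these, 0 passed the adjusted threshold in either contrast or for the slope (limma), against 2 for the arms, 3 for time and 1, downward, for the slope at an unadjusted p under 0.05, where 23.3%, 31.4% and 10.8% of all probes stood. At all 3 times 2 were higher with tetracycline and 3 lower, where 27.7% and 21.9% of all probes did so. Among the cell cycle inhibitors and checkpoint genes, CDKN2B, an inhibitor of the cyclin D kinases, had arm differences of 0.11, -0.43 and -1.46 at 30, 45 and 60 h. CDKN2B was 0.97 higher at 60 h than at 30 h without tetracycline and 0.61 lower with it, and its slope was -0.79 ± 0.10 per 15 h (adjusted p = 0.113). The p53 ligase MDM2 was higher with tetracycline each time, at 0.30, 0.30 and 0.42 (mean 0.34, adjusted p = 0.130). The repair gene BRCA1 was lower each time, at -0.25, -0.36 and -0.58 (mean -0.40, adjusted p = 0.139). BRCA2 stood at -0.03, -0.14 and -0.37. CDKN1B, which inhibits CDK2, had a change of 0.46 ± 0.10 from 30 h to 60 h (adjusted p = 0.0659) and a mean arm difference of 0.13.

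Among mitotic genes, cyclin B2 (CCNB2) stood near the level course of BIRC5, with a change from 30 h to 60 h of 0.01 ± 0.11 on the brightest of its 3 probes and arm differences of -0.02, -0.36 and -0.16. ASPM, a spindle pole gene that like MCPH1 is mutated in primary microcephaly, had arm differences of 0.09, -0.44 and -0.47, lower with tetracycline from 45 h on as the brighter MCPH1 probe was, with a slope of -0.28 ± 0.10 (adjusted p = 0.269).

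**Figure D5:**
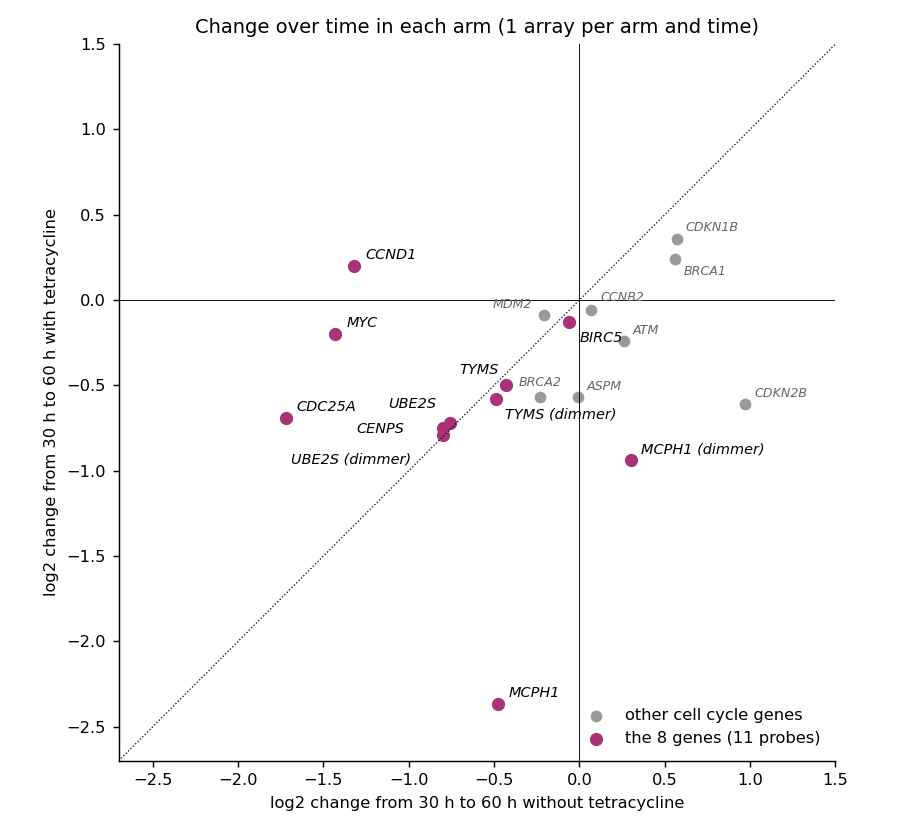
Log2 change from 30 h to 60 h with tetracycline (vertical axis) against the change without it (horizontal axis), 1 array per arm and time, for the 11 member probes (purple) and the 8 other cell cycle genes (grey); the dotted line marks equal change. TYMS, UBE2S, CENPS and BIRC5 lie near the line, CCND1, MYC and CDC25A above it, and MCPH1 and CDKN2B below it. MCPH1 is drawn as measured, with an undetected 60 h array with tetracycline.

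The named genes most like each member were taken by Pearson correlation over the 6 arrays among 1557 named probes well above background on all of them. With 6 arrays that share arms and times such values are high for many probes, and they are given as a description. Cyclin D1 was followed most closely by ICAM1 (r = 0.992) and RPL23 (0.990), the latter spanning only 0.10 log2 units. MYC was nearest to SELENOH (0.940) and GNA11 (0.936). CDC25A was nearest to NIP7 (0.985) and EIF4A1 (0.983), which spanned 0.97 and 1.05 log2 units against 1.72 for CDC25A. For TYMS the nearest was the dimmer UBE2S probe (0.995), and for CENPS that same UBE2S probe (0.990) and THADA (0.989). UBE2S itself was nearest to CAV1 (0.998) and TPMT (0.996), BIRC5 to KLRA1 (0.907) and AP3S2 (0.898), and the brighter MCPH1 probe to CASP2 (0.993) and AP3M1 (0.981).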

How the data were processed

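Spot brightness was deposited as linear intensity, extracted with Agilent Feature Extraction 11.5.1.1 under protocol GE1_1105_Oct12, per the file headers, which give the grid's build as CanFam3.1. That program's processed signal is background-corrected and not scaled between arrays. The deposited flags mark spots as well above background, saturated or outlying. The authors' deposited value table gives intensity for these spots too, equal to the processed signal times 1 factor per array (2.30 to 2.62, column medians 150.9 to 171.5), uncentred; the basis of the factor is unknown. Outlier spots were left out and log2 values of a probe's other spots averaged (43603 probes, 19 dropped), then reduced by the array's 75th percentile. Accessions were matched without version to a RefSeq gene table of another build, used for names only: 2326 probes received 1 symbol, 27 a locus number, 0 several and 41250 none. Unmatched probes are unnamed here. No sequences were used here.

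Probes well above background on all 3 arrays of an arm (28178) were tested with limma 3.58.1 in R 4.3.3 (two-sided, Benjamini-Hochberg over all of them). The model held arm and the 3 times, with 2 residual degrees of freedom, a prior of 2.38 and a prior SD of 0.107; the slope added arm by linear time. The number of arrays limits the precision. For fold values a dim array was set to the lowest signal well above background on it, which is an approximate floor. The tests were tested on simulated data. The simulated arrays held independent noise and no slide effect, so an effect of slide was not covered. The members, the 7 gene lists and the marker lists were chosen with earlier results of these data known. Named are all members, the tested list genes of largest arm difference or change in time (up to 3 each per list), and per member the 2 most similar named genes, 1 of which is not reported here. Normexp used the median spot signal, since the files give no mean. Alternatives were other scalings, background correction, filters, priors, the slide term and left-out arrays.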

Additional observations from a re-analysis of the deposited data

Results flagged for a closer look

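These results were noted because a gene moved one way in one arm or at one time and the other way in the other, with 1 array on each side, so the difference between those directions was not tested beyond the slope given above, and not at all for MCPH1. The 60 h minus 30 h difference of CCND1 was -1.32 without tetracycline and 0.20 with it. MYC differed between the arms by -0.56 at 30 h and by 0.68 at 60 h, and CDC25A by -0.20 and 0.83. The brighter TYMS probe differed by 0.01 and -0.06, both inside the program's error of 0.20. The brighter MCPH1 probe differed by 0.14 at 30 h and -1.75 at 60 h as measured, where the array with tetracycline was not well above background. The 60 h minus 30 h difference of its dimmer probe was 0.30 without tetracycline and -0.94 with it, again against an array not well above background.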

How the results depend on the processing

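The count of probes that differed between the arms (0) was 144 with normexp, 21 when time was left out of the model, 20 with a trended, robust prior and 0 to 1 with a time left out. For 60 h against 30 h (2304) it was 4173 with normexp, 3841 with the trended prior, 0 with no detection filter, 0 with the slide as a term and 0 with any 1 array left out. For the slope (0) it was 301 with median scaling, 1670 with normexp, 1819 with the trended prior and 2 among probes well above background on all arrays. The causes were not tested. Of the member values under these alternatives, 323 kept their direction and side of the threshold, 42 were no longer past it, 5 newly passed and 11 turned sign. These counts take in the arm differences and slopes of MCPH1, which are a description and no test. MCPH1 slopes are among those that newly passed, under median scaling and the trended prior, beside slopes of CCND1 and MYC. Those that turned were the MYC arm difference (0.06 with the slide term, 0.06 to 0.16 with 1 time left out, and -0.45 without 60 h), the CCND1 time change (0.07 without the 60 h array without tetracycline, -1.19 without the one with it), the dimmer MCPH1 probe's time change (0.01 with normexp, -0.80 to 0.15 with 1 array left out), and slopes near 0 for UBE2S (-0.02 and -0.00 with quantile scaling, -0.02 with normexp) and CENPS (-0.01 with normexp). TYMS passed for time under median scaling, normexp, the series matrix values and the trended prior, but not under quantile scaling. The slope with a slide term or without a time could not be fitted, having 0 residual degrees of freedom. The labels give no replicate numbers. Dim signals limit CDC25A and MCPH1.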
